A study of Homo sapiens with 12 samples.

Results

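Kruppel-like factors are transcription factors that bind GC-rich and CACCC-containing DNA through zinc fingers at the C terminus of the protein. The genes described here are the 10 of this family listed as KLF2, KLF3, KLF4, KLF5, KLF6, KLF9, KLF12, KLF13, KLF15 and KLF16. They were taken by symbol from a table of read counts of 16389 genes, and all 10 were present. Other genes of the family, among them KLF10 and KLF11, were also in the table and are described apart. The counts came from HepG2, a human liver cancer cell line used here at passage 9, in 12 libraries of poly(A) RNA, with 3 libraries in each of 4 groups. The LG group was kept in 5.5 mM glucose and the HG group in 20 mM glucose, both without drug. The LGV and HGV groups spent 48 h in the same media and were then given 1 mM valproic acid (VPA), an inhibitor of histone deacetylases, for 12 h. The sources used here do not say whether untreated cells were collected before or after those 12 h, so VPA and time in culture cannot be told apart. Nothing in the labels says that the 3 libraries of a group came from separate cultures, so p values measure the spread between these libraries.

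The family is usually divided by the partners its members recruit. KLF2, KLF4, KLF5 and KLF6 are mostly activators and bind acetyltransferases such as EP300. KLF3 and KLF12 are repressors that bind the corepressor CtBP, and KLF9, KLF13 and KLF16 are repressors that bind Sin3A, which brings histone deacetylases to a promoter. KLF15 is known in the liver as a fasting and glucocorticoid responsive regulator of gluconeogenesis and amino acid breakdown.

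Each library held between 29798442 and 45572694 reads counted on genes. Levels are given as CPM, read counts relative to the library total after TMM scaling, where 3 reads stood for 0.0713 to 0.112 CPM, a floor that covers counting error only. Groups were compared with the quasi-likelihood F test of edgeR over all genes with a mean of at least 10 reads, and a gene was called at an FDR (Benjamini-Hochberg adjusted p) of 0.05 or less. All 10 members passed the filter in every comparison. KLF2 had 7, 8 and 11 reads in the HG libraries, so in comparisons with HG it passed through the other group. Hepatocyte markers were abundant, with all 10 listed genes present (among them ALB, APOA1 and TTR) and a summed level of 52100 to 58800 CPM in LG, 53100 to 60900 CPM in HG, 40100 to 41000 CPM in LGV and 47000 to 61700 CPM in HGV. KLF2 and KLF4 are also known from endothelial cells. Of 4 endothelial markers, VWF and CDH5 were in the table and together reached 2.21 to 3.71 CPM in the LG, HG and LGV libraries and 3.83 to 4.85 CPM in HGV. CDH5 rose with VPA in high glucose (log2 fold change 1.65, FDR 0.00133) and between HGV and LGV (1.80, FDR 0.000924). It reached at most 1.5 CPM and passed the filter only in comparisons that included HGV. VWF was called in neither comparison (0.18, FDR 0.576, and 0.40, FDR 0.187). The part of the CDH5 signal in the levels of KLF2 and KLF4 was not tested. Of 4 fibroblast markers, COL1A1 was in the table and reached at most 2.64 CPM. It rose with VPA by 2.52 in high glucose (FDR 8.96e-05) and by 2.36 in low glucose (FDR 0.000553), and by 0.81 between HGV and LGV (FDR 0.0486). COL1A1 was below the filter between HG and LG and passed it only where treated libraries were included. Of 4 leukocyte markers, LYZ and CD14 were in the table, and PTPRC and CD68 were not found in it. LYZ and CD14 summed to 909 to 1550 CPM, nearly all of it LYZ, since CD14 was at 0.63 to 4.73 CPM. CD14 rose by 1.28 between HG and LG (FDR 0.0016) and by 1.51 between HGV and LGV (FDR 0.000381), and fell by 0.56 between HGV and HG (FDR 0.0218). LYZ rose by 0.61 between HGV and LGV (FDR 0.00185). The part of these signals in the members' levels was not tested either. All libraries came from the HepG2 line, and in bulk libraries the share of cells that express a gene and its level per cell cannot be told apart.

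KLF4, KLF5 and KLF16 are the members called lower with high glucose and higher with VPA in all 4 pairwise comparisons, and their promoters are shown for that reason. KLF12, KLF9 and KLF13 changed in the same directions but were not called in every comparison. The VPA call of KLF16 in high glucose was lost whichever library was left out. The glucose and VPA comparisons share untreated or treated libraries, so their values are set side by side for each gene and are not independent of each other. RefSeq promoters were found for 9 of the 10 members, 13 start sites in all, and the 250 bases before each start site were placed on GRCh37 by an exact match. Capitals mark GGGCGG (the GC box, bound by SP and Kruppel-like proteins) and CACCC on either strand, where matches may overlap. The KLF4 stretch lies on the minus strand at chr9:110252051-110252300, KLF16 on the minus strand at chr19:1863579-1863828, and KLF5 has an upstream start site after chr13:73628864-73629113 and a downstream one after chr13:73632893-73633142, both on the plus strand.
KLF4: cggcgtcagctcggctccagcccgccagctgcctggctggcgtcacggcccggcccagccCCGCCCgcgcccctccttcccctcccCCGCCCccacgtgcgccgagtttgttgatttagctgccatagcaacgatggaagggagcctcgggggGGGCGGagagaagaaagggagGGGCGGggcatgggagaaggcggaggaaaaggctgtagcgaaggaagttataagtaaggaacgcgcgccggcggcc
KLF16: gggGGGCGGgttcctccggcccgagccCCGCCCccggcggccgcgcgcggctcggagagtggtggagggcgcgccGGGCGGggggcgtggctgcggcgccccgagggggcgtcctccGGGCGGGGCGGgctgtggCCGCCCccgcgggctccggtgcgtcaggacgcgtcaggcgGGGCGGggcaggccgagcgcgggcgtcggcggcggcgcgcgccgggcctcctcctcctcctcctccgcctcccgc
KLF5, upstream start: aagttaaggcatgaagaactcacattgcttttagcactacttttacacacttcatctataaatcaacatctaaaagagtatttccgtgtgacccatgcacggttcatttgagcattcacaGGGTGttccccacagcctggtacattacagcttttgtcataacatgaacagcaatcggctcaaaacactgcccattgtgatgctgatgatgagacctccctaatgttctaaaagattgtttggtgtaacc
KLF5, downstream start: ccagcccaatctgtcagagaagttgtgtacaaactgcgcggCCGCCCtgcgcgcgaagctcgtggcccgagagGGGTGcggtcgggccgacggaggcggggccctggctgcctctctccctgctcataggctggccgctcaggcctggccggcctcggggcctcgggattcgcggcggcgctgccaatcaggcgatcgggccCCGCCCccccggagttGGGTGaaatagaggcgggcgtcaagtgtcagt

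The KLF16 stretch was 86.4% G and C and held 7 matches to the GC box, and that of KLF4 was 69.2% G and C and held 4. The upstream start of KLF5 was 40.8% G and C and held none, and its downstream start was 70.8% G and C and held 2. The KLF4 start site lies 713 bases inside the annotated gene, so its stretch is not upstream of the annotated start. Counts per gene do not tell which KLF4 or KLF5 start was used. Over the family, 8 of the 13 stretches held a GC box, as did 42.6% of all 35116 promoters in the RefSeq table, and 5 of the 13 held CACCC, against 54.7% of all promoters. The other motifs searched on both strands were TATAAA, in 1 of the 13 and 10.7% of all promoters, CCAAT, in 6 and 32%, and CCACG, a part of the ER stress element, in 5 and 33.5%. Neither TGACGTCA nor TGATGCAAT was found in the 13 stretches. They occurred in 1.65% and 0.216% of all promoters. These matches are letters in a window and show no binding.

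High glucose lowered 6 of the 10 genes in untreated cells and raised none of them. This does not hold for the whole family, since KLF10 and KLF11, outside the 10, rose by 2.16 and 0.95 on the log2 scale. KLF7, also outside the 10, changed by 0.05 and was not called (FDR 0.878). KLF4, KLF5, KLF6, KLF3, KLF16 and KLF15 fell, while KLF2, KLF12, KLF9 and KLF13 did not pass the test. Of all 15452 genes tested between HG and LG, 24.7% were called, 12.0% higher and 12.7% lower. The median log2 fold change was -0.54 over the 10 members and 0.01 over all tested genes. With VPA present, between HGV and LGV, 8 of the 10 genes were lower and none higher, against 40.7% of 16208 genes called, 21.2% higher and 19.5% lower. The median was -0.73 over the members and 0.01 over all genes. KLF2 and KLF15 did not pass between HGV and LGV. At an unadjusted p below 0.05, still no member was higher in either comparison by edgeR, and DESeq2 and all scalings tried gave none higher. Over all genes and both directions, 5863 of 15452 had such a p between HG and LG and 7979 of 16208 between HGV and LGV. With library size in place of TMM factors, 4 members were lower between HG and LG and 6 between HGV and LGV, again with none higher. These comparisons share no library, and 5 genes were called in both, which is 5 of the 6 in untreated cells and 5 of the 8 in treated cells, all lower. Of 15271 genes tested in both, 18.8% were called in both, 8.85% higher in both and 9.90% lower in both.

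**Figure D1:**
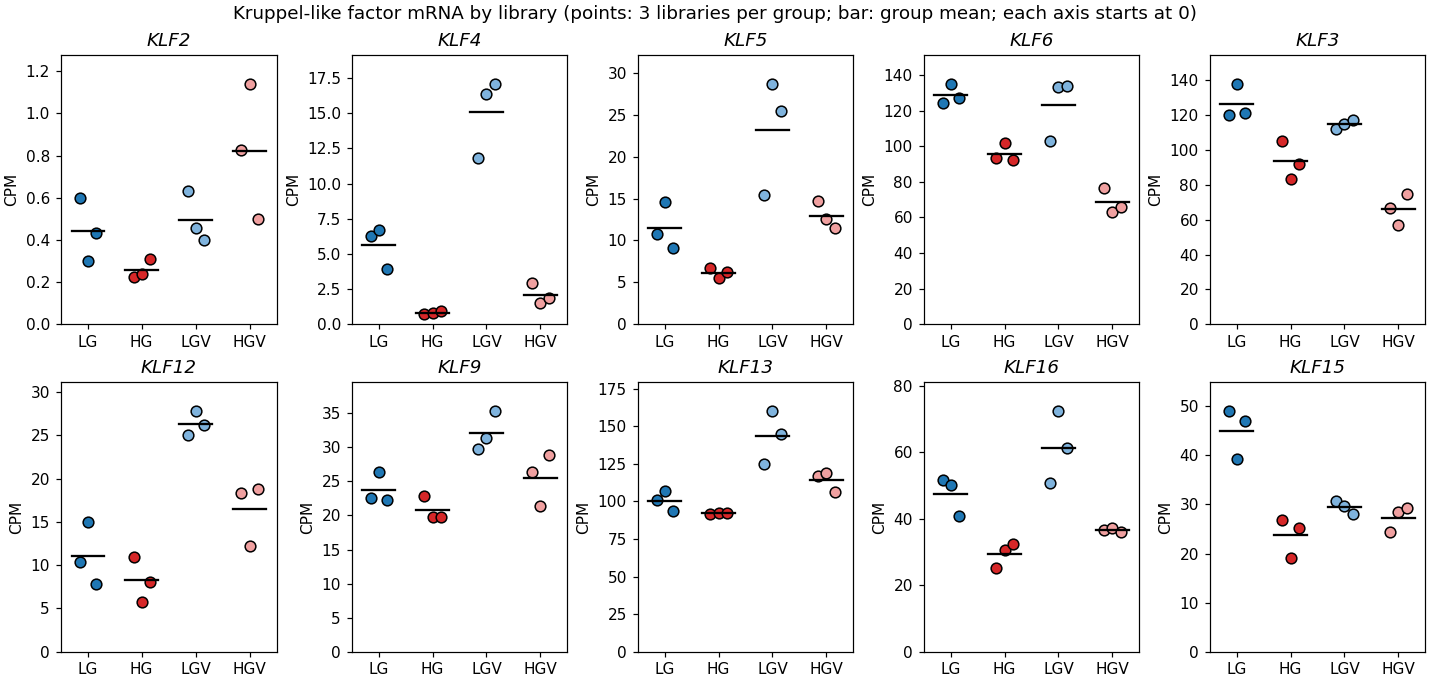
Levels of the 10 Kruppel-like factor mRNAs in CPM (vertical axes, each from 0) in the 12 libraries, with points for libraries, bars for group means and the groups LG, HG, LGV and HGV along the horizontal axis. KLF4 was at 3.93 to 6.71 CPM in LG and 0.761 to 0.924 CPM in HG, and the 3 LGV libraries were the highest for KLF4, KLF5, KLF12, KLF9 and KLF13. The share of all genes with this order was not counted.

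KLF4 (ENSG00000136826, chromosome 9 from 110247133 to 110252763 on GRCh37, minus strand) showed the widest range of the family. It encodes a regulator of epithelial differentiation that is also used to reprogram somatic cells to pluripotency. Its level was 6.28, 6.71 and 3.93 CPM in LG and 0.761, 0.778 and 0.924 CPM in HG. It was 11.8, 16.4 and 17.1 CPM in LGV and 2.94, 1.52 and 1.88 CPM in HGV. Every high glucose library lay below every low glucose library, also between HGV and LG. The log2 fold change was -2.75 between HG and LG (standard error 0.27, FDR 1.08e-06) and -2.87 between HGV and LGV (standard error 0.23, FDR 9.58e-08), a level 6.71-fold and 7.29-fold lower. In size these exceeded the changes of 99.9% of tested genes in either comparison. VPA raised KLF4 by 1.44 in low glucose (standard error 0.22, FDR 9.1e-05) and by 1.35 in high glucose (standard error 0.29, FDR 0.00208). Each VPA library lay above all untreated libraries of its medium. Of its exon bases, 9.75% are shared with a long noncoding RNA gene of the opposite orientation. No strand setting of the counting is given in the sources used here, so reads of such pairs cannot be told apart.

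KLF5 (ENSG00000102554, chromosome 13 from 73629114 to 73651679, plus strand), which promotes proliferation in epithelia such as the intestinal crypt, was also highest in LGV and lowest in HG, with LG and HGV between them and close to each other. It had 10.8, 14.6 and 9.09 CPM in LG, 6.75, 5.47 and 6.27 CPM in HG, 15.4, 28.7 and 25.5 CPM in LGV, and 14.7, 12.6 and 11.5 CPM in HGV. HG libraries did not overlap LG libraries, nor did HGV overlap LGV. The log2 fold change was -0.88 (standard error 0.19, FDR 0.00317) without VPA and -0.86 (standard error 0.19, FDR 0.0013) with it. With VPA, KLF5 rose by 1.02 in low glucose (FDR 0.00184) and by 1.07 in high glucose (FDR 9.12e-05), about a doubling in either medium (2.03-fold and 2.09-fold). LGV replicate 1 lay below the other LGV libraries, and without it the rise in low glucose was 1.26 (FDR 0.000154).

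KLF6 (ENSG00000067082, chromosome 10 from 3818188 to 3827473, minus strand) is induced early after injury and is known for splice variants in liver cancer, which these counts per gene do not separate. It was at 124, 135 and 127 CPM in LG, 93.2, 102 and 92.4 CPM in HG, 103, 133 and 134 CPM in LGV and 76.7, 63.2 and 66 CPM in HGV. High glucose libraries lay below low glucose libraries throughout. KLF6 fell by 0.40 on the log2 scale between HG and LG (FDR 0.0206) and by 0.86 between HGV and LGV (FDR 7.39e-05). The first of these held without HG replicate 2 (FDR 0.0366) and without LG replicate 3 (FDR 0.0165). Its FDR was 0.0621 without HG replicate 1, 0.138 without HG replicate 3, 0.0512 without LG replicate 1 and 0.0623 without LG replicate 2. It was 0.0587 with library size as the scaling and 0.0543 with the replicate number as a block.

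KLF2 (ENSG00000127528, chromosome 19 from 16435637 to 16439496, plus strand), known from blood flow sensing in endothelium and quiescence in T cells, had between 7 and 48 reads per library. It was at 0.598, 0.299 and 0.434 CPM in LG, 0.222, 0.239 and 0.308 CPM in HG, 0.63, 0.455 and 0.4 CPM in LGV and 0.828, 1.14 and 0.5 CPM in HGV. The HGV libraries lay above the HG libraries, and the LG and LGV libraries overlapped. At this depth the glucose comparisons were not resolved, with a log2 fold change of -0.72 between HG and LG (95% interval -1.58 to 0.15, FDR 0.213) and of 0.73 between HGV and LGV (95% interval -0.07 to 1.53, FDR 0.136).

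KLF3 (ENSG00000109787, chromosome 4 from 38665818 to 38703138, plus strand) is a CtBP-binding repressor studied in red cell and fat cell development. Its libraries had 120, 138 and 121 CPM in LG, 105, 83.6 and 91.7 CPM in HG, 112, 115 and 117 CPM in LGV and 66.9, 56.9 and 74.6 CPM in HGV. Low and high glucose did not overlap in either treatment. KLF3 fell by 0.42 between HG and LG (FDR 0.0197) and by 0.81 between HGV and LGV (FDR 7.35e-05). The smaller of these had an FDR of 0.115 without HG replicate 2, 0.129 without HG replicate 3, 0.0575 without LG replicate 1 and 0.0905 without LG replicate 2, and of 0.0615 with library size as the scaling. The antisense gene KLF3-AS1 covers 3.91% of the exon bases of KLF3.

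KLF12 (ENSG00000118922, chromosome 13 from 74260226 to 74708541, minus strand), a repressor first described at the gene of the factor AP-2 alpha, had 10.4, 15 and 7.86 CPM in LG and 11, 5.8 and 8.04 CPM in HG. These groups overlapped, and the log2 fold change of -0.41 did not pass (95% interval -0.90 to 0.08, FDR 0.209), except without LG replicate 3 (FDR 0.0385). It had 25.1, 27.8 and 26.2 CPM in LGV and 18.4, 12.2 and 18.8 CPM in HGV, which did not overlap, and fell by 0.70 between HGV and LGV (FDR 0.00155).

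The Sin3A-binding members are KLF16, KLF9 and KLF13. KLF16 (ENSG00000129911, chromosome 19 from 1852398 to 1863578, minus strand), a repressor known from the dopamine receptor gene, had 51.7, 50.3 and 40.8 CPM in LG, 25.3, 30.7 and 32.5 CPM in HG, 50.7, 72.4 and 61.2 CPM in LGV and 36.7, 37.3 and 36.1 CPM in HGV. Low and high glucose libraries did not overlap. It fell by 0.66 between HG and LG (standard error 0.15, FDR 0.00324) and by 0.76 between HGV and LGV (standard error 0.13, FDR 0.000237). A long noncoding RNA gene of the opposite orientation covers 16.3% of the exon bases of KLF16.

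KLF9 (ENSG00000119138, chromosome 9 from 72999520 to 73029573, minus strand), a glucocorticoid and thyroid hormone responsive repressor, had 22.5, 26.4 and 22.3 CPM in LG, 22.8, 19.8 and 19.7 CPM in HG, 29.7, 31.3 and 35.3 CPM in LGV and 26.4, 21.4 and 28.8 CPM in HGV. KLF13 (ENSG00000169926, chromosome 15 from 31619038 to 31727868, plus strand), known for driving the chemokine gene CCL5 in T cells, had 101, 107 and 93.6 CPM in LG, 91.8, 92.6 and 92.3 CPM in HG, 125, 160 and 145 CPM in LGV and 117, 119 and 106 CPM in HGV. LG and HG overlapped for KLF9 and were close, without overlap, for KLF13. The log2 fold change between HG and LG was -0.17 for KLF9 (95% interval -0.48 to 0.13) and -0.10 for KLF13 (95% interval -0.35 to 0.14). Between HGV and LGV, KLF9 fell by 0.35 (FDR 0.0457) and KLF13 also by 0.35 (FDR 0.0316). Neither call held throughout. The FDR of KLF9 was 0.0862 without HGV replicate 1, 0.134 without HGV replicate 2, 0.0822 without LGV replicate 2 and 0.212 without LGV replicate 3, and it was 0.171 with library size as the scaling and 0.057 in one fit of all 12 libraries. That of KLF13 was 0.0645 without HGV replicate 1, 0.121 without HGV replicate 3, 0.171 without LGV replicate 2, 0.109 without LGV replicate 3 and 0.054 with library size.

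KLF15 (ENSG00000163884, chromosome 3 from 126061478 to 126076251, minus strand) had its own order of groups. It was at 49, 39.2 and 47 CPM in LG, 26.9, 19.1 and 25.3 CPM in HG, 30.7, 29.6 and 28 CPM in LGV and 24.4, 28.4 and 29.2 CPM in HGV. LG stood above all other libraries, and the other groups lay within 19.1 and 30.7 CPM. KLF15 fell by 0.90 between HG and LG (standard error 0.15, FDR 0.000333), to 0.535 of its LG level. Between HGV and LGV the log2 fold change was -0.12 (95% interval -0.38 to 0.14, FDR 0.448). Leaving out single libraries kept the first FDR at 0.0102 or less.

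**Figure D2:**
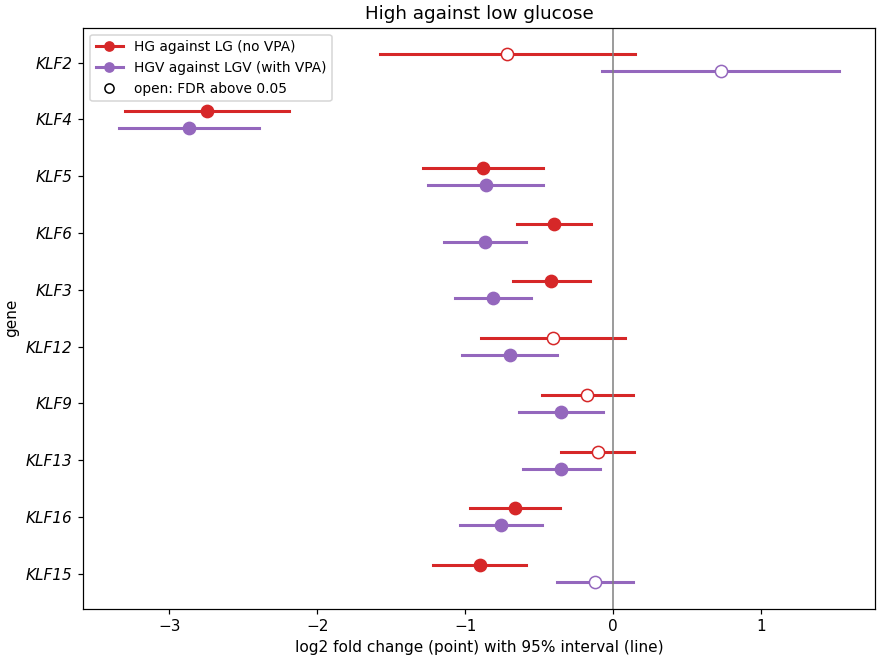
Log2 fold changes of high against low glucose (horizontal axis) with 95% intervals for each gene (vertical axis), without VPA in red and with VPA in purple, open where the FDR was above 0.05. KLF4 stands at -2.75 and -2.87, and KLF2 with VPA is the estimate on the positive side, at 0.73, and was not called.

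VPA moved most members upward. In high glucose, 6 of the 10 genes were higher and 2 lower in HGV than in HG, where 46.1% of 16188 tested genes were called, 25.8% higher and 20.2% lower. With a filter of 1 CPM in 3 libraries, which KLF2 did not pass, 5 members were higher and 2 lower. In low glucose, 6 were higher and 1 lower in LGV than in LG, where 41.6% of 15944 genes were called, 21.7% higher and 19.9% lower. The median log2 fold change was 0.31 over the members and 0.02 over all genes in high glucose, and 0.41 and -0.01 in low glucose. With library size as the scaling, the medians of all genes were 0.15 and 0.16, and 7 members were higher and 2 lower in high glucose and 6 higher and 1 lower in low glucose. KLF4, KLF5, KLF12, KLF13 and KLF16 were called in both media, 5 of the 8 in high glucose and 5 of the 7 in low glucose, and each of them was higher with VPA. Of 15743 genes tested in both media, 32.4% were called in both, 17.5% higher in both and 14.8% lower in both.

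Among the activators, KLF2 rose by 1.68 in high glucose (standard error 0.40, 95% interval 0.82 to 2.54, FDR 0.00401), a 3.2-fold rise on few reads. It had 7, 8 and 11 reads in HG and 27, 48 and 17 in HGV. KLF2 thus passed the filter in this comparison only through the group where it was higher. In low glucose the log2 fold change of KLF2 was 0.20 (95% interval -0.64 to 1.04, FDR 0.721). KLF6 fell by 0.48 in high glucose (standard error 0.11, FDR 0.00272). Its log2 fold change in low glucose was -0.05 (95% interval -0.32 to 0.22, FDR 0.801). The LG and LGV libraries of KLF6 overlapped, whereas each HGV library lay below each HG library.

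Among the CtBP-binding repressors, KLF12 and KLF3 differed. KLF12 rose by 1.26 in low glucose (standard error 0.19, FDR 0.000119) and by 0.99 in high glucose (standard error 0.23, FDR 0.00314). Its VPA libraries lay above the untreated libraries of the same medium. KLF3 fell by 0.50 in high glucose (standard error 0.13, FDR 0.00591), and its log2 fold change in low glucose was -0.13 (95% interval -0.37 to 0.11, FDR 0.373).

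The Sin3A-binding members had small positive changes with VPA. KLF13 rose by 0.52 in low glucose (FDR 0.0035) and by 0.30 in high glucose (FDR 0.0194), and within each medium its treated libraries lay above its untreated ones. The second value had an FDR of 0.0607 without HGV replicate 1, 0.0567 without HG replicate 1, 0.0604 without HG replicate 2 and 0.0845 without HG replicate 3. KLF16 rose by 0.38 in low glucose (FDR 0.0438) and by 0.31 in high glucose (FDR 0.0451). LG and LGV overlapped for KLF16. Its FDR in low glucose was 0.235 without LGV replicate 2 (log2 fold change 0.25), 0.0929 without LGV replicate 3, 0.0671 without LG replicate 1 and 0.115 without LG replicate 3. In high glucose it was above 0.05 whichever library was left out: 0.0984, 0.0587 and 0.082 without HGV replicates 1, 2 and 3, and 0.188 (log2 fold change 0.19), 0.0736 and 0.0518 without HG replicates 1, 2 and 3. It was also 0.0844 with the size factors of DESeq2, 0.089 with the Wald test of DESeq2 and 0.0755 in one fit of all 12 libraries. KLF9 rose by 0.45 in low glucose (FDR 0.013), with an FDR of 0.0801 without LGV replicate 3 and 0.0521 without LG replicate 1. In high glucose its log2 fold change was 0.30 (95% interval 0.0045 to 0.59, FDR 0.0897), which passed without HGV replicate 2 (FDR 0.0126) and with library size (FDR 0.0292).

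KLF15 fell with VPA in low glucose by 0.60 (standard error 0.13, FDR 0.00139), a 1.52-fold lower level, with no overlap between LG and LGV. In high glucose its log2 fold change was 0.20 (95% interval -0.11 to 0.51, FDR 0.269), and HG and HGV overlapped.

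**Figure D3:**
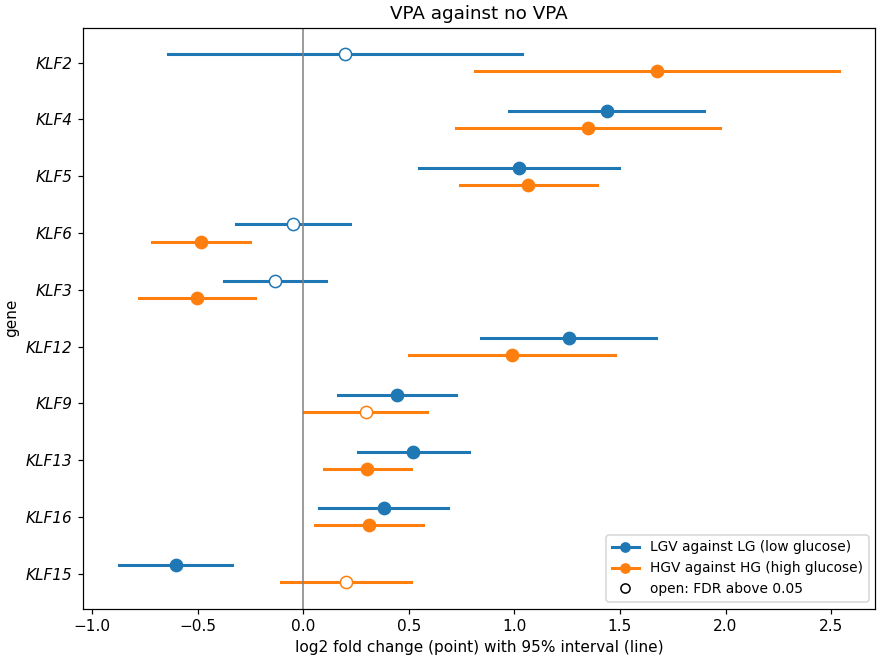
Log2 fold changes of VPA-treated against untreated cells (horizontal axis) with 95% intervals for each gene (vertical axis), in low glucose in blue and in high glucose in orange, open where the FDR was above 0.05. KLF4, KLF5 and KLF12 stand near or above 1 in both media, KLF3 and KLF6 are lower in high glucose, and KLF15 is lower in low glucose.

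Whether VPA acted differently in the media was tested as an interaction term in a fit of the 12 libraries. No member passed in edgeR at an FDR of 0.05, as against 7 of 16389 genes (0.0427%). At an unadjusted p below 0.05 there were 3 of the 10 members and 1852 of the 16389 genes. The members were KLF15 with an interaction of 0.82 on the log2 scale (95% interval 0.41 to 1.23, FDR 0.0947), KLF2 with 1.49 (95% interval 0.31 to 2.67, FDR 0.302) and KLF6 with -0.43 (95% interval -0.78 to -0.07, FDR 0.329). The Wald test of DESeq2 called 1 member, KLF15 (0.79, FDR 0.0197), and 162 genes in all. Without LG replicate 2, KLF15 also passed in edgeR (0.88, FDR 0.0289), among 217 genes. For KLF4 the interaction was -0.08 (95% interval -0.88 to 0.73) and for KLF5 0.06 (95% interval -0.55 to 0.66), intervals that leave room for differences of either sign. A call in one medium and not in the other is therefore not shown to be a difference between media for any member by the edgeR test on all libraries.

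Levels of different genes were compared per length of exon, as CPM per kb of the merged exons of GENCODE on GRCh37. In LG the order from high to low was KLF6, KLF3, KLF16, KLF15, KLF13, KLF9, KLF5, KLF4, KLF12 and KLF2. KLF6 had 21 ± 0.926 and KLF2 0.157 ± 0.0531 CPM per kb (SD, n = 3). Neighbours whose libraries overlapped were KLF6 and KLF3, KLF16 and KLF15, and KLF4 and KLF12. In HG, KLF6 led with 15.6 ± 0.868 and overlapped KLF3. KLF16 and KLF13 also overlapped there, and KLF4, with 0.224 ± 0.0245 (SD, n = 3), came after KLF12. In LGV, KLF16 with 20.7 ± 3.66, KLF6, KLF3 and KLF13 formed a run of overlapping neighbours, followed by KLF15 alone, by KLF5 and KLF9, which overlapped, and by KLF4, KLF12 and KLF2. In HGV, neighbours overlapped from KLF16 with 12.4 ± 0.202 through KLF13, KLF6 and KLF3 to KLF15 with 9.71 ± 0.914 (SD, n = 3). KLF9, KLF5, KLF12, KLF4 and KLF2 then followed without overlap of neighbours, down to 0.577 ± 0.202 for KLF4 and 0.292 ± 0.113 for KLF2 (SD, n = 3). The sum over the 10 genes ran from 87.6 to 96.9 CPM per kb in LG, 62 to 66 in HG, 90.1 to 111 in LGV and 63.4 to 67.6 in HGV.

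**Figure D4:**
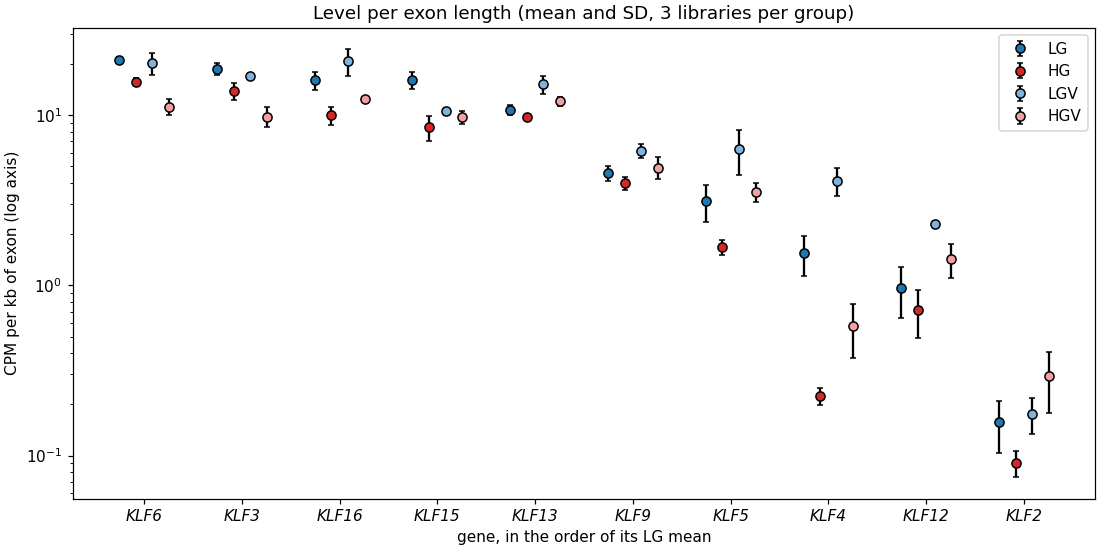
Level per exon length (vertical axis, CPM per kb, log axis) of each gene (horizontal axis, in the order of LG means), with mean and SD of 3 libraries for LG, HG, LGV and HGV. KLF6 is at 21 CPM per kb in LG and KLF2 at 0.157, and KLF4 moves from 1.54 in LG to 0.224 in HG.

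The genes with profiles most like those of the 3 members with the widest range of group means were sought among 11954 genes whose mean log2 CPM was 1 or more. Pearson's r of log2 CPM over the 12 libraries is given as a description, since the libraries share the 4 groups. For KLF4, whose group means spanned 4.10 on the log2 scale, they were DNAJB11 (0.986), SEL1L (0.983) and the noncoding RP11-427H3.3 (0.983). DNAJB11 encodes an ER chaperone and SEL1L a part of the machinery for ER-associated degradation. For KLF5, with a span of 1.86, they were CRY1 (0.987), a repressor of the circadian clock, IFFO2 (0.987) and CALU (0.985), which encodes an ER calcium-binding protein. For KLF12, with a span of 1.71, they were STXBP4 (0.984), SYNJ1 (0.98) and SWAP70 (0.98).

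Of 16 other KLF and SP genes listed, 9 were in the table and tested. High glucose moved KLF10 and KLF11, which are TGF-beta-inducible repressors that bind Sin3A, upward. KLF10 had 17.6 to 20.3 CPM in LG and 47.3 to 116 CPM in HG (log2 fold change 2.16, FDR 2.37e-06), and KLF11 had 12.2 to 20.1 CPM in LG and 27.6 to 37.7 CPM in HG (0.95, FDR 0.00116). SP1 fell by 0.38 (FDR 0.0406). In total 2 of the 9 were higher and 1 lower between HG and LG, and 2 were higher and 4 lower between HGV and LGV, where KLF10 rose by 1.82 and SP1 fell by 0.55. With VPA, 2 were higher and 2 lower in high glucose, and 4 higher and 2 lower in low glucose. Of all tested genes, 24.7% were called between HG and LG and 40.7% between HGV and LGV. With VPA the shares were 46.1% in high and 41.6% in low glucose. SP6, an epithelial member of the SP family, rose by 3.86 in high glucose (from 0.254 to 0.508 CPM in HG to 5.44 to 6.13 CPM in HGV, FDR 1.3e-07) and by 4.08 in low glucose (FDR 4.57e-08).

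Of 15 cofactors listed, all were tested. Between HG and LG, 4 were lower and none higher: the corepressor CTBP2, 2.83-fold lower (FDR 0.0129), and with log2 fold changes the acetyltransferase EP300 (-0.53), SAP30 (-0.52) and the scaffold SIN3A (-0.40). Between HGV and LGV 7 were lower and none higher, with CTBP2 at -0.87, EP300 at -0.82, SAP30 at -0.81 and CREBBP at -0.80. With VPA, 5 were higher and 5 lower in high glucose, and 6 higher and 3 lower in low glucose. Over all tested genes, 24.7% were called between HG and LG and 40.7% between HGV and LGV. The shares with VPA were 46.1% in high and 41.6% in low glucose. Whether the cofactor counts differ from these shares was not tested. The acetyltransferase KAT2B rose by 1.14 and 0.86 and the corepressor CTBP1 fell by 0.91 and 1.06, in high and low glucose. CREBBP fell by 1.33 and 0.79, and SAP30, a part of the Sin3 complex, rose by 0.56 and 0.81, in high and low glucose. CTBP1 was at 158 to 171 CPM in LG and 75.2 to 80.6 CPM in LGV. CTBP2 rose by 2.87 and 2.21 in high and low glucose, from at most 0.848 CPM in any untreated library. This is a low level for a widely expressed gene, and whether the counting took in all of its reads was not tested, so its levels and changes are uncertain.

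Of 12 upstream regulators listed, 11 were tested. Between HG and LG, 2 were lower, MEF2D (-0.58) and ELK1 (-0.54), and none higher. Between HGV and LGV, 6 were lower, including ELK1 (-0.57) and the glucocorticoid receptor gene NR3C1 (-0.49), and 1 was higher, FOXO1 (0.38), which is named here after its value was seen. With VPA, 3 were higher and 2 lower in high glucose and 3 higher and none lower in low glucose. Called shares of all tested genes were 24.7% between HG and LG and 40.7% between HGV and LGV. They were 46.1% with VPA in high glucose and 41.6% in low glucose. The early response factor EGR1 rose by 1.19 and 1.13, and the clock activator ARNTL by 1.20 and 1.23, in high and low glucose. Of 14 genes listed as targets of the family, 10 were tested between HG and LG and 11 in the other comparisons. Between HG and LG, 4 were higher, led by the gluconeogenic gene G6PC (1.18) and BTG2 (0.94), and 1 was lower, TAT (-0.61), a tyrosine-degrading enzyme. Between HGV and LGV, 4 were higher and 2 lower. With VPA, 6 were higher and 4 lower in high glucose and 3 higher and 4 lower in low glucose. The shares of all genes given for the upstream regulators apply to these counts too. The proline-degrading enzyme PRODH rose by 4.17 in high glucose (from 0.19 to 0.359 CPM in HG to 4.3 to 5.09 CPM in HGV) and by 3.52 in low glucose. PRODH was below the filter between HG and LG and passed it with VPA only through the treated libraries. TAT fell by 1.11 and 0.95 in high and low glucose.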

How the data were processed

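RNA of HepG2 cells was selected for poly(A) tails and made into directional libraries. Per the labels and the study's methods, reads of 50 nt from one end were quality trimmed, STAR placed them on GRCh37, and featureCounts assigned them to Ensembl genes. The authors deposited the unscaled counts of genes whose mean was at least 10 reads. The submitters' processing notes name bcl2fastq 2.17.1.14. The strand setting of the counting is not given in the sources used here.

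Tests used edgeR 4.0.16 under R 4.3.3 on these counts (TMM factors, quasi-likelihood F test, the libraries of each comparison only, mean count of at least 10, FDR over all genes tested). Standard errors were the log2 fold change over the root of F. CPM values and profiles used TMM factors of all 12 libraries, with a prior count of 2 for log2 CPM. Exons came from GENCODE on GRCh37 and promoters from RefSeq (GRCh38.p14). Figures were drawn with matplotlib 3.10.9 in Python 3.11.15. The edgeR procedure was tested on simulated data.

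The members and gene lists were chosen with earlier results of these data known. All members are named. Of each other list, up to 4 called genes with the largest changes in a comparison were named, and for profiles the 3 nearest genes of the 3 members with the widest range. For CREBBP and SAP30, the VPA change in the other medium is given as well. KLF7 and VWF are named beside the called genes of their lists although they were not called. Alternatives were other size factors, DESeq2 1.42.0, other filters, one fit of all libraries, replicate number as a block, an FDR of 0.01 and leaving out single libraries.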

Additional observations from a re-analysis of the deposited data

How the results depend on the processing

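The number of members called kept within 1.5 times its value in all 4 pairwise comparisons under each alternative tried, and 635 of 695 alternative values of single members kept their direction and their side of the threshold. KLF2 had no value under the filter of 1 CPM in 3 libraries wherever too few of its libraries reached it. The exception among counts was the interaction, with 1 member in place of none by the Wald test of DESeq2, and with 0 to 1 when single libraries were left out. For all genes, an FDR of 0.01 gave 1852 calls between HG and LG (3813 at 0.05), 4263 between HGV and LGV (6604 at 0.05) and 1 for the interaction, and leaving out single libraries gave 1933 to 5338 calls between HG and LG and 1 to 217 for the interaction. The interaction had 162 calls with DESeq2, 1 with library size only and 13 with the replicate block. Same-numbered libraries did not deviate together in every pair (correlations across genes from -0.325 to 0.00569 for HG and LG, -0.324 to 0.392 for HG and HGV, -0.263 to 0.476 for LG and LGV, and -0.0159 to 0.316 for LGV and HGV), so the numbers were not taken to pair them. With the replicate block 5 in place of 6 members were called between HG and LG, and 8229 in place of 7456 genes between HGV and HG. With library size only, calls over all genes were 2172 higher and 1297 lower between HG and LG (1854 and 1959 with TMM factors), 5182 and 2424 between HGV and HG (4184 and 3272), and 4500 and 1956 between LGV and LG (3461 and 3177). Reversals concerned values that were not called. Between LGV and LG, library size gave 0.11 for KLF6 and 0.029 for KLF3. With single libraries left out, the log2 fold change between LGV and LG ranged from -0.10 to 0.080 for KLF6 and from -0.033 to 0.43 for KLF2, and the interaction from -0.19 to 0.21 for KLF5, from -0.38 to 0.13 for KLF4 and from -0.20 to 0.047 for KLF16. The causes were not tested. KLF2, with at most 48 reads in a library, is the member whose precision depth limits most.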

Other observations

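Glucocorticoids induce KLF9 and KLF15 in many tissues, and 5 of 6 listed targets of their receptor were tested. Between HG and LG, 2 were lower, the clock gene PER1 with a log2 fold change of -1.06 (FDR 0.00021) and the phosphatase gene DUSP1 with -0.43 (FDR 0.034), and none was higher. With VPA in high glucose, 3 were higher and 1 was lower. TSC22D3 rose by 0.93, FKBP5 by 0.77 and DUSP1 by 0.57, while the kinase gene SGK1 fell by 1.52 (FDR 4.12e-07). In low glucose TSC22D3 rose by 0.94 and SGK1 fell by 2.08 (FDR 7.22e-07). Between HGV and LGV, 2 were higher, FKBP5 (0.75) and SGK1 (0.56), and 1 was lower, PER1 (-0.63). All tested genes had called shares of 24.7% between HG and LG and 40.7% between HGV and LGV. With VPA these were 46.1% in high and 41.6% in low glucose. With VPA in low glucose, KLF9 changed by 0.45 (FDR 0.013) and KLF15 by -0.60 (FDR 0.00139). Whether the receptor had a part in the levels of KLF9 and KLF15 was not tested.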
